A study of Mus musculus with 10 samples.

Results

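The genes described here are Trp53, which encodes the transcription factor p53, a set of its known targets, and the BCL2 family with the caspase steps next to it. They were chosen by symbol, 32 in all, and all 32 have a row among the 22457 genes of the deposited count table. Of these, 31 passed the filter on low counts and were tested with 13528 genes in total. The exception was Hrk, a BH3-only gene best known from neurons, which had 2 counts in Ctrl replicate 3, 2 in M3-CKO replicate 1 and 0 in the other 4 libraries.

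The libraries came from mouse tracheal epithelial organoids, small 3-dimensional cultures grown in Matrigel from basal cells, the stem cells of the airway lining. RNA-seq was done on 3 libraries from animals labelled Ctrl and 3 from animals labelled M3-CKO, all harvested on day 14. According to the series title M3-CKO stands for loss of Mettl3, the methyltransferase that places N6-methyladenosine on mRNA. The sources used here give neither what drives the deletion nor the deleted exons, the strain, age and sex of the animals, or the genotype of Ctrl beyond its name. Both groups were grown in medium with insulin, epidermal growth factor, retinoic acid, cholera toxin and the TGF-beta and BMP receptor inhibitors A83-01 and DMH-1, with a ROCK inhibitor for the first 3 days. A differentiation medium without these receptor inhibitors is also described, and the labels do not say for how many of the 14 days it was used. The 4 m6A immunoprecipitation and input libraries were not analysed here.

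In resting cells p53 is made and destroyed continuously, because the ubiquitin ligase MDM2 marks it for degradation and its relative MDM4 blocks its activation domain. DNA damage and other stresses break this hold, mostly without a change in Trp53 mRNA, and p53 then raises genes of cell cycle arrest, DNA repair, metabolism and cell death, including Mdm2 itself. Death by the mitochondrial route is set by the BCL2 family: BAX and BAK open the outer membrane, BCL2, BCL-XL, BCL-w and MCL1 hold them closed, and the BH3-only proteins, several of them p53 targets, tip that balance. Released cytochrome c then assembles APAF1 and caspase 9 into the apoptosome, while caspase 8 starts the route from death receptors.

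p53 binds pairs of a decamer motif, so the promoter windows of the listed genes were scanned for such pairs, to show which of them carry a p53-like site at the start itself. RefSeq windows on GRCm38.p6, from 250 bases before to 50 after each start, were held for 27 of the 32 genes. A pair was taken as 2 copies of the p53 consensus decamer with at most 3 bases between them and at most 2 mismatches over both. The C and the G that bound the core of the decamer had to match in each copy. The motif is its own reverse complement in consensus, so both strands were covered. Of the 27 genes 4 held a pair (14.8%), against 1.55% of 27025 genes with a window. A gene with several windows was counted if any of them held a pair. The limits were set after a wider scan had been seen, and many of the 27 were listed as p53 targets. The difference between the 2 shares is therefore a description and not a test. The sites, read 5′ to 3′ on the strand of the gene with both decamers in capitals, were these.
Cdkn1a, chr17:29090913-29090962, plus strand: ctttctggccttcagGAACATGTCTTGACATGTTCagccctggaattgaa
Ccng1, chr11:40755447-40755496, minus strand: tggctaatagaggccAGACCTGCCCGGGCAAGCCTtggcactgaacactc
Sesn1, chr10:41887238-41887290, plus strand: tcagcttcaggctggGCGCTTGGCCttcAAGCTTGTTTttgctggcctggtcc
Bax, chr7:45467064-45467114, minus strand: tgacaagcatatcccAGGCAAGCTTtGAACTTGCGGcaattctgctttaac
The Cdkn1a pair lay 51 to 32 bases before the start of an upstream transcript and the Ccng1 pair 195 to 176 before its start, each with 1 mismatch and no spacer. The Sesn1 pair (186 to 164 bases before) and the Bax pair (201 to 181 before) had 2 mismatches each, with spacers of 3 bases and 1 base. These are matches of letters, not measured binding, and a gene without a match can hold sites elsewhere, as Mdm2 does in its first intron. The 4 genes did not share a direction: their log2 fold changes, given in full below, were 0.61 for Cdkn1a, -0.14 for Ccng1, -0.21 for Sesn1 and 0.45 for Bax. Of the 4, 0 passed the edgeR test and 0 were called by DESeq2 (against 2.91% and 7.54% of all genes). None of the 4 had an unadjusted p under 0.05 (against 20.5% of all genes). So few genes can hardly differ from these shares.

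Some facts on the libraries bear on every value. Totals ran from 8906375 to 10485922 counts, so 1 CPM (counts scaled to TMM-adjusted library size) rests on 8.90 to 10.4 counts. Across tested genes M3-CKO replicate 3 stood apart: the Pearson r of log2 CPM was 0.914 and 0.925 with the other 2 M3-CKO libraries, 0.928 to 0.932 with the Ctrl libraries, 0.988 between the other 2, and 0.971 to 0.980 among Ctrl libraries. No 2 libraries agreed within sampling noise (chi-square per degree of freedom of 6.14 or more). Mettl3 itself stood at 14.96, 17.0 and 18.9 CPM in Ctrl and 11.1, 10.3 and 9.87 CPM in M3-CKO, so the groups did not overlap, and its adjusted p in the edgeR fit was 0.12. All 10 basal cell markers had a row and summed to 2450 to 2855 CPM in Ctrl and 1415 to 1472 in M3-CKO. Markers of mesenchymal cells (4 of 8 with a row) summed to at most 12.9 CPM, and of endothelial cells (3 of 6) to at most 1.14. Of the 4 immune markers with a row, which summed to 38.6 to 99.96 CPM, Cd68 made up most, and the pan-leukocyte gene Ptprc was at 0 counts in 5 libraries. In such bulk samples fewer cells of a type and less RNA per cell cannot be told apart.

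Of the 31 tested genes 0 were called by edgeR's quasi-likelihood test at an adjusted p under 0.05, where 2.91% of all tested genes were called (1.74% higher and 1.16% lower in M3-CKO). At an unadjusted p under 0.05 stood 3 of the 31 (9.68%, against 20.5% of all genes): Bcl2l1, Gadd45b and Mdm2, all higher in M3-CKO. DESeq2 called 2 of the 31, Gadd45b and Bcl2l1 (7.54% of all genes with an adjusted p), and limma-voom called 0. In 2 of 31 genes, Mdm2 and Bcl2l1, every M3-CKO library lay above every Ctrl library, a share of 6.45%. Over the whole table such separation was seen in 27.1% of tested genes, 13.7% with M3-CKO above and 13.5% with M3-CKO below. The median log2 fold change was 0.04 over the 31 and 0.02 over all tested genes, with 17 of the 31 positive. Without M3-CKO replicate 3 edgeR called 8 of the 31 (25.8%, against 25% of all genes): Mdm2, Cdkn1a, Gadd45b, Trp53inp1, Zmat3, Bcl2l1 and Bcl2l2 were higher (13.7% of all genes) and Sesn1 was lower (11.3%). Those adjusted p values rest on M3-CKO replicates 1 and 2, the closest pair of the 6 libraries.

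**Figure D1:**
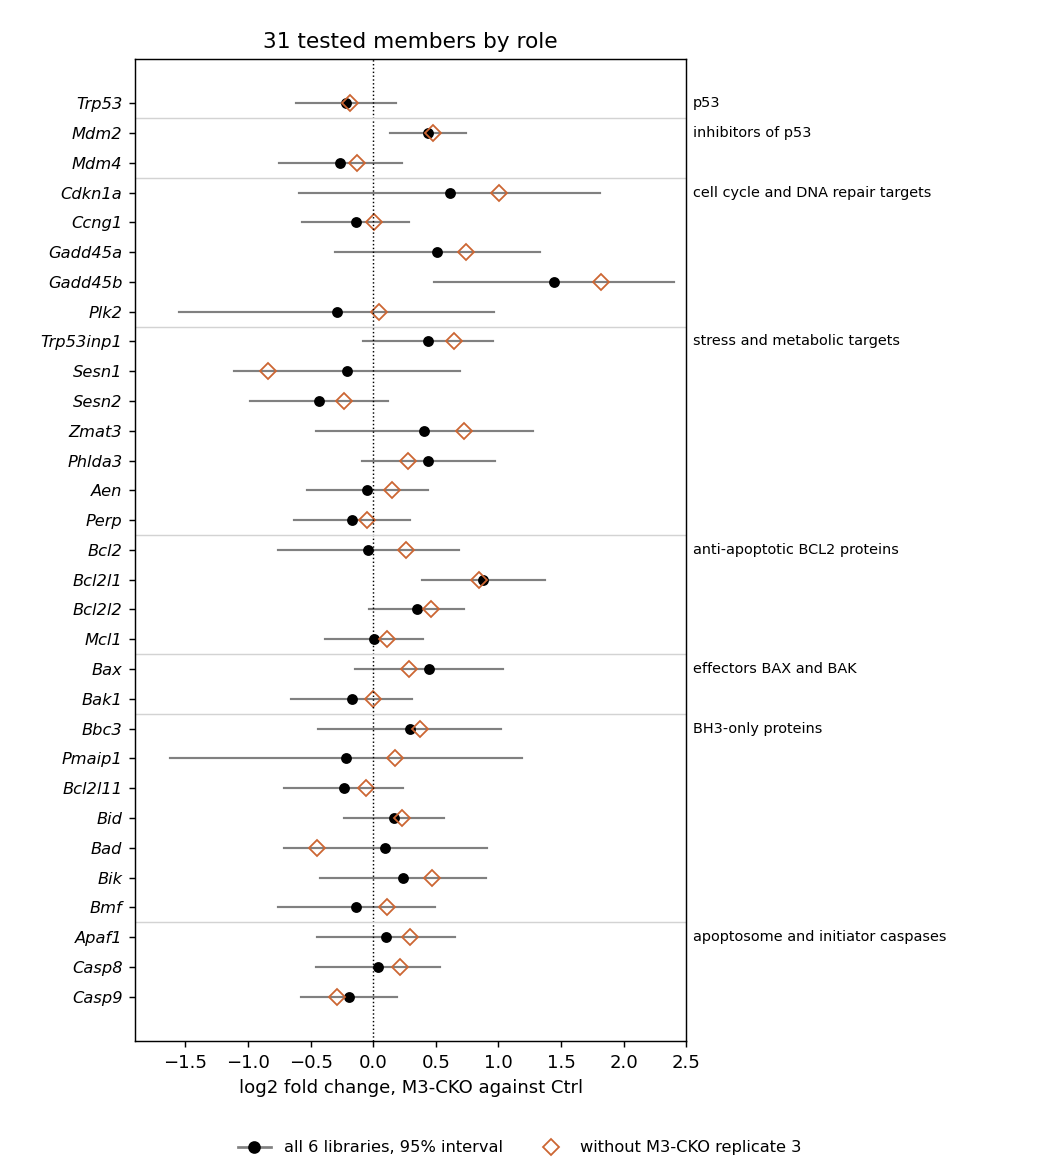
Log2 fold change of M3-CKO against Ctrl on the horizontal axis for each of the 31 tested genes, grouped by role. Black dots with grey lines are the estimates from all 6 libraries with their 95% intervals, not adjusted for the number of genes, and open diamonds are the estimates without M3-CKO replicate 3. The intervals of Mdm2, Gadd45b and Bcl2l1 lie above 0, and the diamonds of Cdkn1a (1.01) and Sesn1 (-0.84) lie well away from their dots (0.61 and -0.21).

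The levels of Trp53 mRNA overlapped between the groups. Replicates 1 to 3, in this order here and below, held 41.2, 49.9 and 37.1 CPM in Ctrl and 38.3, 37.0 and 35.0 CPM in M3-CKO. Only Ctrl replicate 2 stood somewhat above the rest. The log2 fold change was -0.22 (SE 0.17, adjusted p = 0.53), with a 95% interval of -0.61 to 0.18. The counts measure mRNA and say nothing of the amount or activity of p53 protein, which is mostly set after translation.

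Of the inhibitors of p53, Mdm2 was higher in each M3-CKO library and Mdm4 was not. Mdm2, which is itself a p53 target, stood at 118, 127 and 126 CPM in Ctrl and at 176, 168 and 158 CPM in M3-CKO. The groups were both tight, within 1.07-fold and 1.12-fold from lowest to highest, and did not overlap. The log2 fold change was 0.44 (SE 0.13, 95% interval 0.13 to 0.74), a ratio of 1.35 between the means. The edgeR adjusted p of 0.12 missed the threshold, which was passed without M3-CKO replicate 3 (0.48, adjusted p = 0.015) and not without any other single library (adjusted p from 0.25 to 0.39). With 3 libraries against 3 the exact two-sided permutation p of 0.1 is the smallest possible.
Mdm4 stood at 195, 269 and 282 CPM in Ctrl and at 209, 247 and 166 CPM in M3-CKO, with overlapping groups (log2 fold change -0.26, SE 0.21, adjusted p = 0.54). Its transcript is known to be spliced into forms with and without protein product, which a count over the whole gene does not separate.

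The targets that act on the cell cycle and DNA repair divided into genes that were higher in M3-CKO replicates 1 and 2 and genes that were not. Gadd45b, a stress sensor that also responds to cytokine signals, had the largest fold change of all 31 genes. It stood at 43.0, 30.8 and 39.5 CPM in Ctrl and at 130.2, 136 and 42.3 CPM in M3-CKO. Here replicates 1 and 2 of M3-CKO lay about 3 times as high as any Ctrl library, while replicate 3 lay within the Ctrl range. The log2 fold change was 1.45 (SE 0.41, 95% interval 0.49 to 2.40, edgeR adjusted p = 0.105). Gadd45b was called by DESeq2 (adjusted p = 0.0066) and, in edgeR, without a low-count filter (0.035). Without M3-CKO replicate 3 (1.82, adjusted p = 0.00041) or replicate 3 of both groups (adjusted p = 0.0022) edgeR also called it. It was not called when any other single library was left out (edgeR adjusted p from 0.24 to 0.31) or by limma-voom (0.18).
Cdkn1a, which encodes the cyclin-dependent kinase inhibitor p21, stood at 387, 158 and 337 CPM in Ctrl and at 565, 622 and 160.1 CPM in M3-CKO. Its lowest values, Ctrl replicate 2 and M3-CKO replicate 3, belong to different groups, so the spread inside each group (2.44-fold and 3.88-fold) was larger than the 1.53-fold ratio of the means. The log2 fold change of 0.61 had a 95% interval of -0.59 to 1.81, so neither a change of 2-fold upward nor none at all lies outside it. Without M3-CKO replicate 3 it was 1.01 (adjusted p = 0.049). Leaving out replicate 3 of both groups gave 1.11, and Cdkn1a was then not called (edgeR adjusted p = 0.073).

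Gadd45a, the stress sensor that binds the repair clamp PCNA, also had Ctrl replicate 2 and M3-CKO replicate 3 as the lowest library of their group. Its values were 64.6, 27.5 and 38.9 CPM in Ctrl and 73.4, 72.7 and 40.6 CPM in M3-CKO (log2 fold change 0.51, SE 0.35, adjusted p = 0.46). Plk2, a polo-like kinase of the stress checkpoint, stood at 113, 31.0 and 43.4 CPM in Ctrl and at 63.9, 65.5 and 23.8 CPM in M3-CKO. Its highest value was thus a Ctrl library, and the sign of its log2 fold change (-0.29, SE 0.54) depends on that library, being 0.46 without Ctrl replicate 1. Ccng1, which encodes cyclin G1 and is among the most regular p53 targets across tissues, was flat apart from 1 library. It stood at 448, 406 and 457 CPM in Ctrl and at 431, 450.2 and 310.2 CPM in M3-CKO, with an interval for its log2 fold change of -0.56 to 0.29 around -0.14.

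**Figure D2:**
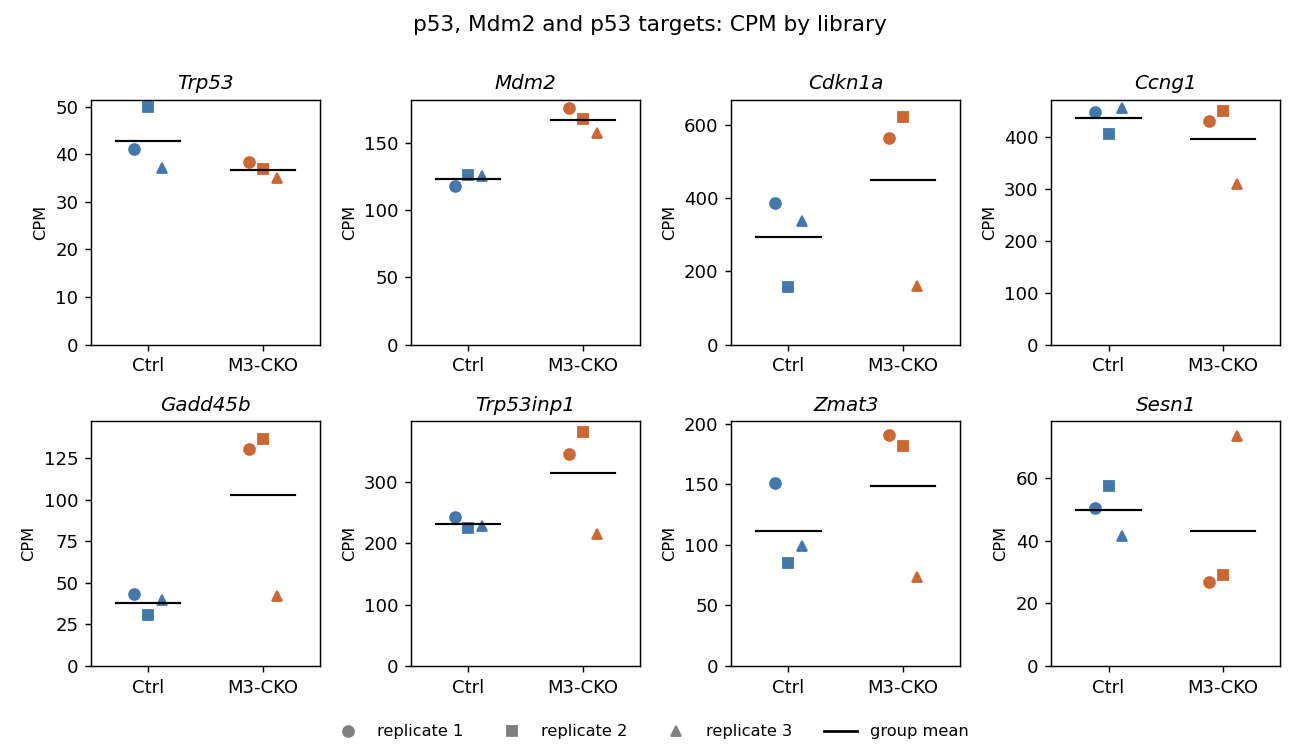
CPM on linear axes from 0 for Trp53, Mdm2 and 6 p53 targets in the 3 Ctrl and 3 M3-CKO libraries, with marker shape for the replicate and a black line for the group mean. Mdm2 is the only gene shown whose M3-CKO libraries (158 to 176 CPM) all lie above the Ctrl libraries (118 to 127 CPM), and in Cdkn1a, Gadd45b, Trp53inp1 and Zmat3 the triangle of M3-CKO replicate 3 lies far below the other 2.

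A further 7 targets act on metabolism, growth signals and other stress responses. With all 6 libraries edgeR called 0 of these 7 (against 2.91% of all genes). At an unadjusted p under 0.05 stood 0 of them (against 20.5% of all genes), and DESeq2 called 0 (against 7.54%). Trp53inp1, a stress-induced protein that links p53 to autophagy, stood at 244, 225 and 228 CPM in Ctrl and at 345, 382 and 215 CPM in M3-CKO. The Ctrl libraries were within 1.09-fold of each other, and M3-CKO replicate 3 lay just below them while replicates 1 and 2 lay above (0.44, SE 0.22, adjusted p = 0.33, or 0.64 and 0.0058 without replicate 3). Zmat3, a zinc finger protein that binds RNA and shifts splicing, had values of 151, 85.3 and 98.8 CPM in Ctrl and of 190.1, 181 and 73.6 CPM in M3-CKO (0.41, SE 0.37, adjusted p = 0.59, or 0.73 and 0.044 without replicate 3). Without replicate 3 of both groups its log2 fold change was 0.65 and its adjusted p 0.11.
Sesn1 went the other way. This inhibitor of the growth kinase complex mTORC1 stood at 50.6, 57.5 and 41.4 CPM in Ctrl and at 26.7, 29.1 and 73.4 CPM in M3-CKO. Here replicates 1 and 2 of M3-CKO were the lowest of the 6 libraries and replicate 3 the highest. The log2 fold change was -0.21 (SE 0.39, adjusted p = 0.81) with all libraries and -0.84 (adjusted p = 0.011) without replicate 3. Its relative Sesn2, which is also induced by amino acid shortage, was at 66.4, 47.7 and 58.0 CPM against 47.9, 49.9 and 29.8 CPM (-0.43, SE 0.24, adjusted p = 0.36), without the opposed values of replicate 3.
Phlda3, which competes with AKT for membrane lipids, was, with Sesn1, Bax and Bad, 1 of 4 genes highest in M3-CKO replicate 3. It held 188, 119.9 and 119 CPM in Ctrl and 168, 178 and 232 CPM in M3-CKO (0.44, SE 0.23, adjusted p = 0.33). The nuclease gene Aen had log2 fold change -0.05 (95% interval -0.53 to 0.44). Perp, a membrane protein of desmosomes that p63 also controls in layered epithelia, had -0.17 (95% interval -0.63 to 0.29).

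Of the 4 anti-apoptotic genes, Bcl2l1 had the clearest difference. Bcl2l1, which encodes BCL-XL, stood at 264, 163 and 197 CPM in Ctrl and at 415, 331 and 399 CPM in M3-CKO. All M3-CKO libraries, replicate 3 included, lay above all Ctrl libraries. The means were 208 ± 51.4 and 382 ± 44.7 CPM (SD, n = 3 each), a ratio of 1.84, and the log2 fold change was 0.88 (SE 0.21, 95% interval 0.39 to 1.37). The edgeR adjusted p of 0.069 missed the threshold. It was 0.0093 by DESeq2 and, in edgeR, 0.042 without a low-count filter and 0.020 without M3-CKO replicate 3. It missed the threshold in all other settings: 0.071 with limma-voom, 0.057 without replicate 3 of both groups, and from 0.10 to 0.26 when any other single library was left out. Its size stayed between 0.73 and 1.09 on the log2 scale over all settings. The exact two-sided permutation p was 0.1, the smallest this design allows. The gene gives a long, protective and a short, death-promoting splice form, and the count holds both. The coding gene Cox4i2 overlaps it in the GRCm38.p6 annotation and had a mean of 0.056 CPM.

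Bcl2l2, which encodes BCL-w, stood at 136, 143 and 154 CPM in Ctrl and at 195, 204 and 151 CPM in M3-CKO. M3-CKO replicate 3 again lay among the Ctrl libraries, and the log2 fold change of 0.35 (SE 0.16, adjusted p = 0.28) was 0.46 without it (adjusted p = 0.019). Mcl1, a short-lived guardian whose loss is lethal to many cell types, was the gene closest to no difference: 608, 522 and 521 CPM in Ctrl and 598, 592 and 468 CPM in M3-CKO. Its log2 fold change was 0.01, with a 95% interval of -0.39 to 0.40. Bcl2, the founding member, stood at 38.0, 35.0 and 40.8 CPM in Ctrl and at 45.6, 45.5 and 19.7 CPM in M3-CKO. There, replicates 1 and 2 were above and replicate 3 below all Ctrl libraries, which gave a log2 fold change of -0.04 (SE 0.31).

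Both pore-forming effectors had overlapping groups. Bax was at 24.1, 14.4 and 18.1 CPM in Ctrl and 22.0, 24.2 and 30.9 CPM in M3-CKO (log2 fold change 0.45, 95% interval -0.14 to 1.04, adjusted p = 0.37), and M3-CKO replicate 3 was its highest library. Bak1 had its lowest value in that same library, at 68.1 CPM against 94.6 to 120.1 CPM in the other 5 (-0.17, SE 0.21, adjusted p = 0.70).

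**Figure D3:**
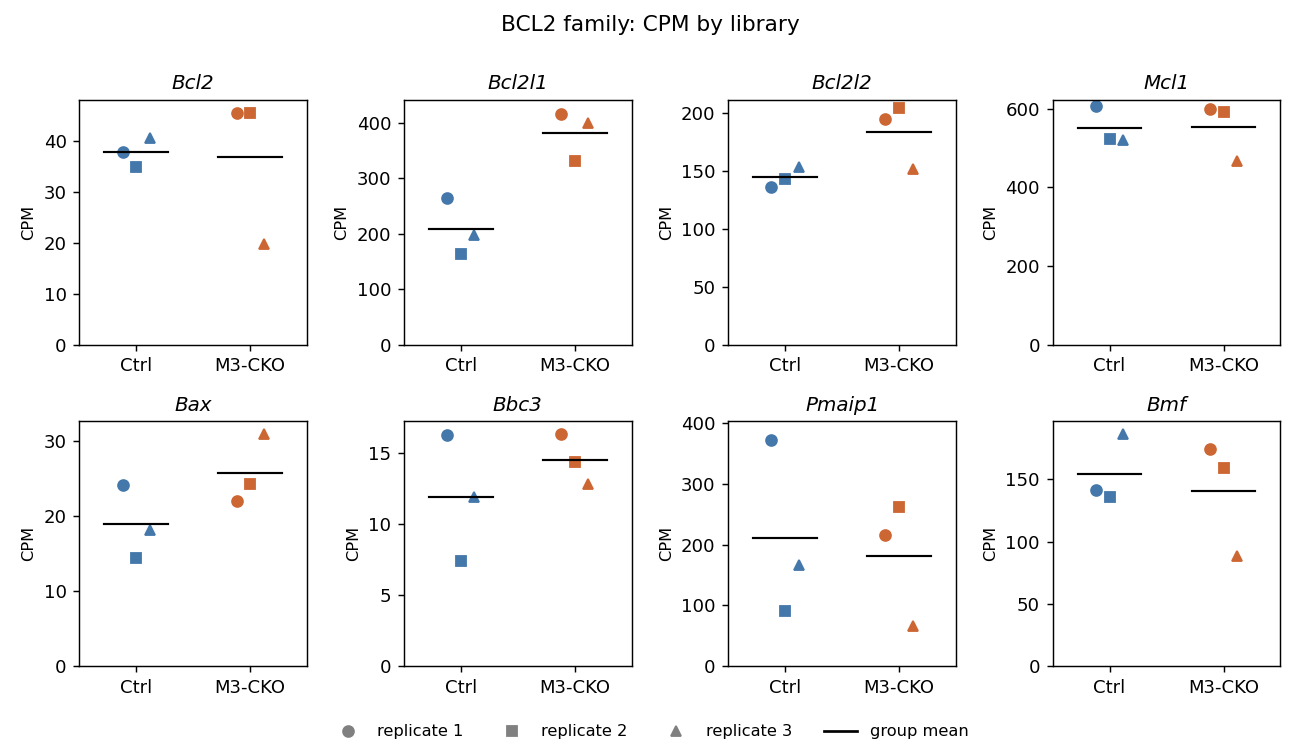
CPM on linear axes from 0 for the 4 anti-apoptotic genes (Bcl2, Bcl2l1, Bcl2l2, Mcl1), the effector Bax and the BH3-only genes Bbc3, Pmaip1 and Bmf, by library, with marker shape for the replicate and a black line for the group mean. Bcl2l1 is the only gene shown whose groups do not overlap (163 to 264 CPM in Ctrl, 331 to 415 in M3-CKO), and Pmaip1 has the widest spread within both groups.

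Of the 7 tested BH3-only genes 4 had a positive and 3 a negative log2 fold change, from -0.24 (Bcl2l11) to 0.29 (Bbc3). Called were 0 by edgeR and 0 by DESeq2 (against 2.91% and 7.54% of all genes). At an unadjusted p under 0.05 stood 0 (against 20.5% of all genes). Bbc3, which encodes the p53 target PUMA, was at 16.3, 7.40 and 11.9 CPM in Ctrl and at 16.3, 14.4 and 12.8 CPM in M3-CKO (SE 0.31, adjusted p = 0.66), from 70 to 169 counts per library. Pmaip1, which encodes NOXA, a binding partner of MCL1, was at 372, 91.2 and 167 CPM in Ctrl and at 215, 262 and 65.2 CPM in M3-CKO. Its range was 4.08-fold within Ctrl and 4.01-fold within M3-CKO, so the log2 fold change of -0.22 had the widest interval of the 31 genes, -1.62 to 1.19.
Bcl2l11, which encodes BIM and is held down by growth factor signals, was at 63.8, 61.2 and 74.1 CPM against 62.2, 65.4 and 41.6 CPM (95% interval -0.71 to 0.24). Bmf, which responds to loss of attachment, was at 141, 136 and 187 CPM against 175, 159 and 88.7 CPM (-0.13, SE 0.27, adjusted p = 0.83). Bik was low, at 12.7, 11.8 and 11.7 CPM against 17.7, 15.9 and 9.15 CPM (0.24, SE 0.29, adjusted p = 0.70). In these last 3 genes M3-CKO replicate 3 was the lowest of the 6 libraries and replicates 1 and 2 lay within or above the Ctrl range.
Bad, which is silenced by phosphorylation downstream of AKT, had the opposite order. It stood at 38.3, 33.3 and 31.9 CPM in Ctrl and at 26.5, 24.2 and 60.1 CPM in M3-CKO, the same pattern as Sesn1. Its log2 fold change was 0.10 with all libraries and -0.45 without replicate 3 (adjusted p = 0.91 and 0.069). Bad overlaps Gpr137, which had a mean of 70.8 CPM, so reads at their shared end are uncertain. Bid, the link from caspase 8 to the mitochondria, had a log2 fold change of 0.17 (95% interval -0.24 to 0.57).

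The groups overlapped for the 3 genes of the apoptosome and the initiator caspases. Apaf1, the scaffold of the apoptosome, had a log2 fold change of 0.10 (95% interval -0.45 to 0.65), with a share of reads that may belong to the overlapping gene Ikbip (mean 35.9 CPM, against 29.6 for Apaf1). Casp8 had 0.04 (95% interval -0.45 to 0.53). Casp9 had -0.20 (95% interval -0.58 to 0.19). It stood at 46.0, 47.5 and 44.8 CPM in Ctrl and at 34.0, 41.5 and 45.3 CPM in M3-CKO, where replicate 3 matched the Ctrl libraries.

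Within a library, the family members can be set against each other. Bcl2l1 made up 25.2%, 18.9% and 21.6% of the summed CPM of the 4 anti-apoptotic genes in Ctrl and 33.1%, 28.2% and 38.5% in M3-CKO, so these shares did not overlap. Mcl1 made up 58.1%, 60.5% and 57.1% in Ctrl and 47.7%, 50.5% and 45.1% in M3-CKO. The deposited table holds no gene lengths, so these are shares of reads, not of molecules. The log2 difference of Bax minus Bcl2l1 was -3.45, -3.50 and -3.44 in Ctrl and -4.24, -3.78 and -3.69 in M3-CKO, lower in every M3-CKO library. The sum of the 8 BH3-only genes against that of the 4 anti-apoptotic genes, in contrast, overlapped between groups: the log2 difference was -0.57, -1.16 and -0.79 in Ctrl and -1.14, -0.96 and -1.66 in M3-CKO. Pmaip1 supplied between 19.9% and 52.9% of the BH3-only sum, so this measure follows that gene closely. The sum of the 2 effectors against the anti-apoptotic sum was -2.86, -2.98 and -3.01 in Ctrl and -3.27, -3.25 and -3.39 in M3-CKO. Only the differences between sums were planned. The shares of Bcl2l1 and Mcl1 and the Bax difference were not in the plan. Each contains Bcl2l1, as does the anti-apoptotic sum, so their separation is not independent of that gene. These balances are given as descriptions, without a test.

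**Figure D4:**
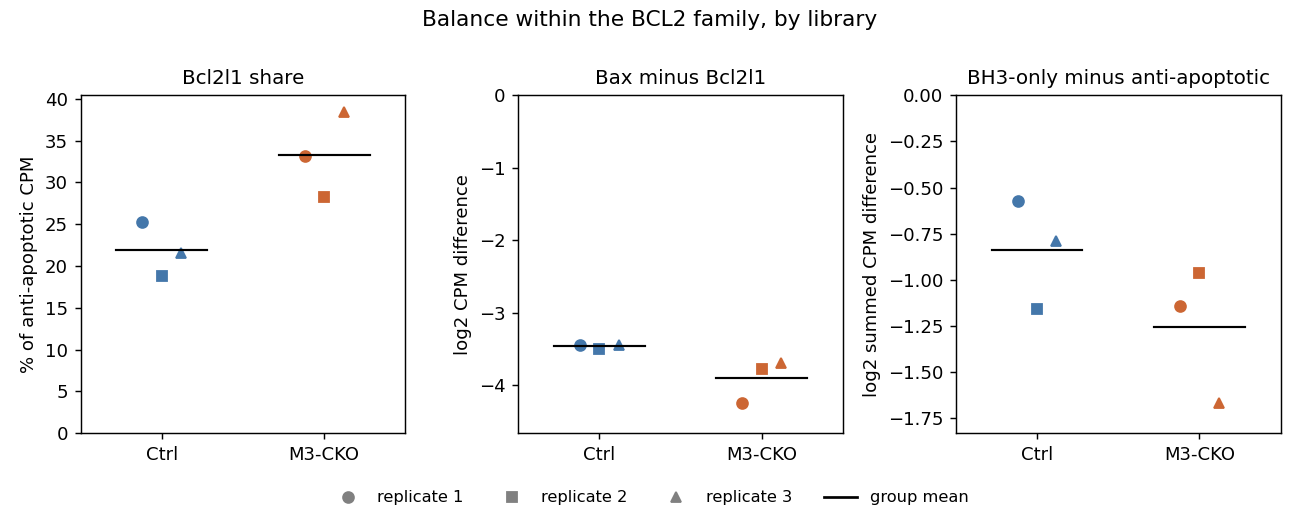
Balance within the BCL2 family in each library, as the share of Bcl2l1 in the summed CPM of the 4 anti-apoptotic genes (left, percent), the log2 CPM difference of Bax minus Bcl2l1 (middle) and the log2 difference of summed BH3-only minus summed anti-apoptotic CPM (right). Black lines are group means. The left and middle groups, both of which contain Bcl2l1, do not overlap (18.9% to 25.2% against 28.2% to 38.5%, and -3.50 to -3.44 against -4.24 to -3.69). The right groups do.

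Several p53 targets varied widely between the Ctrl libraries themselves. The highest Ctrl library was at least 2-fold above the lowest for 5 of the 31 (16.1%), against 5.58% of the 9643 tested genes with a mean of at least 10 CPM, although the medians were close (1.35-fold and 1.26-fold). Within M3-CKO a spread of that size was seen in 8 of the 31 (25.8%), near the 21.2% of all such genes. The 5 were Pmaip1, Plk2, Cdkn1a, Gadd45a and Bbc3, all p53 targets, and in each of them Ctrl replicate 1 was the highest and Ctrl replicate 2 the lowest of the 3. Ctrl replicate 1 was the highest Ctrl library in 40.5% of all tested genes. The 8 listed markers of dividing cells ran in the opposite order, with a summed level of 163, 595 and 269 CPM in Ctrl replicates 1 to 3. They summed to 409, 555 and 133 CPM in M3-CKO, where the lowest library, replicate 3, was also the lowest for Pmaip1, Plk2, Cdkn1a, Gadd45a and Bbc3. Their part in these results was not tested.

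M3-CKO replicate 3 lay below the mean log2 level of M3-CKO replicates 1 and 2 in 25 of the 31 genes (80.6%, against 49.3% of all tested genes), by a median of 0.60 log2 units where the median of all genes was 0.01 above. It was the lowest of all 6 libraries in 18 of 31 (58.1%, against 25.9% of all tested genes). The 6 genes at least 1 log2 unit lower (19.4%, against 11.8% of all tested genes) were Cdkn1a, Pmaip1, Gadd45b, Plk2, Zmat3 and Bcl2. The 2 at least 1 unit higher (6.45%, against 8.93% of all tested genes) were Sesn1 and Bad. The club cell markers in this library summed to 5397 CPM, against 1526 and 2076 in the other 2 M3-CKO libraries and 3810 to 4265 in Ctrl, and their part in the shift was not tested.

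Genes of the same pathways outside the 32 were read from 6 further lists. Of 41 tested further p53 targets 1 was called, higher in M3-CKO, where 1.74% of all genes were called higher. This was Ddit4l, a stress-induced inhibitor of mTOR signalling, at 7.32, 3.49 and 2.81 CPM in Ctrl and 24.0, 24.6 and 21.1 CPM in M3-CKO (log2 fold change 2.35, SE 0.37, adjusted p = 0.029). It differs from most of the 32 in that M3-CKO replicate 3 lay with the other 2. Of these 41, 26 had a positive log2 fold change, with a median of 0.11 (0.02 over all tested genes). At an unadjusted p under 0.05 stood 15 (36.6%, against 20.5% of all genes), and in 16 (39%, against 27.1%) the groups did not overlap in either direction. Without M3-CKO replicate 3 edgeR called 13 of them higher and 4 lower (13.7% and 11.3% of all genes). The secreted stress hormone Gdf15 stood at 14.1, 8.25 and 10.9 CPM in Ctrl and at 58.6, 43.0 and 15.1 CPM in M3-CKO (1.81, SE 0.48, adjusted p = 0.086, or 0.00095 without M3-CKO replicate 3). The death receptor Fas was low, with 5.43 ± 0.931 CPM (SD, n = 3) in Ctrl and 5.85 ± 0.940 in M3-CKO. Its log2 fold change was 0.11 (SE 0.30, adjusted p = 0.88).
Of 21 p53 relatives and regulators 0 were called by edgeR (against 2.91% of all genes), and in 4 the groups did not overlap (19%, against 27.1%). At an unadjusted p under 0.05 stood 3 of the 21 (14.3%, against 20.5% of all genes). Among them was Trp63, the p53 relative that marks basal cells, at 264, 269 and 185 CPM in Ctrl and 111, 103 and 196 CPM in M3-CKO (-0.81, SE 0.28, adjusted p = 0.16, or 0.0034 without M3-CKO replicate 3). Of 19 tested apoptosome, effector caspase and IAP-related genes 3 had an unadjusted p under 0.05 (15.8%, against 20.5% of all genes). In 5 the groups did not overlap (26.3%, against 27.1%). Of the 19, 2 were called, both lower, where 1.16% of all genes were called lower: Naip5 (-2.02, adjusted p = 0.029) and Naip6 (-1.65, adjusted p = 0.037). Both are known as inflammasome sensors of bacterial proteins rather than as parts of the apoptosome. The 2 are close paralogs, so the split of reads between them is uncertain.
Of 10 further BCL2 family genes, 11 death receptor genes and 17 DNA damage response genes 0 were called by edgeR (against 2.91% of all genes). At an unadjusted p under 0.05 stood 3, 3 and 1 of them (30%, 27.3% and 5.88%, against 20.5% of all genes). The groups did not overlap, in either direction, in 6, 2 and 4 (60%, 18.2% and 23.5%, against 27.1% of all genes). The median log2 fold changes of these lists, in the same order, were 0.11, 0.14 and -0.19.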

How the data were processed

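RNA-seq libraries of 3 Ctrl and 3 M3-CKO organoid samples were compared. The deposited values are raw counts per gene symbol. Trim Galore, HISAT2 and featureCounts with build mm39 are named in the submitters' processing notes; for their versions, the annotation, the strand setting and the handling of reads with several matches, nothing is given in the sources used here, and reads of overlapping genes and close copies are uncertain. All sample columns were used. Genes were kept by filterByExpr and tested with edgeR 4.0.16 in R 4.3.3 (TMM, glmQLFit, glmQLFTest, two-sided, no covariate), with Benjamini-Hochberg adjustment over all tested genes and calls at an adjusted p under 0.05. Adjusted p values come from edgeR where no tool is named. CPM use TMM-scaled library sizes. The SE is the log2 fold change over the square root of F, and the 95% interval uses the test's degrees of freedom. Library shifts use log2(CPM + 0.5).

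Whether replicates came from separate mice or cultures is not stated, so p-values reflect only how far these libraries differ, possibly for technical reasons. The genes and lists were chosen with earlier results of these data known. Values per library are given for 13 genes set in the naming rule (Trp53, Mdm2, Cdkn1a, Ccng1, Bax, Bbc3, Pmaip1, Bcl2, Bcl2l1, Mcl1, Bcl2l11, Bmf and Bik), for genes called, not overlapping, or called without M3-CKO replicate 3, and for Mettl3. Mdm4, Gadd45a, Plk2, Sesn2, Phlda3, Bad and Casp9 were added after their values were seen. From the further lists the rule names up to 4 called genes each and Fas, Gdf15 and Trp63, and 1 further gene that is not reported here. The lists were p53 regulators, further p53 targets, further BCL2 family genes, apoptosome and effector caspases, the death receptor pathway and the DNA damage response. Promoter windows were from RefSeq on GRCm38.p6, used only for sequence, names and overlaps. The scan's limits on spacer and mismatches were chosen after a wider scan had been seen. Alternatives were DESeq2 1.42.0 (size factors and Wald test), limma-voom 3.58.1, library size alone, other low-count filters, leaving out the 20 most abundant genes, a replicate block, and leaving out each library. Leaving out replicate 3 of both groups was added after seeing the data. On simulated data with 13528 genes the edgeR steps recovered 22% of 2-fold, 78% of 4-fold and 92% of 8-fold changes.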

Additional observations from a re-analysis of the deposited data

How the results depend on the processing

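With 3 libraries a group, differences of 2-fold or less were often not detectable. The count of called genes, 393 of all tested, was 1200 with the DESeq2 Wald test, 740 without a low-count filter, 2624 without replicate 3 of both groups, and 0 to 3483 when 1 library was left out. The count of called genes among the 31 was 0, against 2.91% of all genes. It was 2 with the DESeq2 Wald test (against 7.54% of all genes) and 2 without a low-count filter (against 3.30%). It was 5 without replicate 3 of both groups (against 19.2% of all genes). With 1 library left out it ran from 0 to 8, the 8 without M3-CKO replicate 3 (25.8%, against 25% of all genes). The count of genes whose groups did not overlap was 2 (6.45%, against 27.1% of all genes). It became 5 with library size alone (16.1%, against 26.9% of all genes). It was 17 without replicate 3 of both groups (54.8%, against 64.5% of all genes). With 1 library left out it ran from 2 to 15, the 15 without M3-CKO replicate 3 (48.4%, against 56.8% of all genes). The median log2 fold change of the 31 ran from -0.0081 to 0.21 when 1 library was left out. The cause of these shifts was not tested.

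Same-numbered libraries did not deviate together (correlations of -0.02, 0.02 and -0.11 across genes), so the numbers are not taken as pairs. With the replicate number as a block 20 genes were called, 0 of them among the 31.

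The log2 fold change changed sign in some setting for 13 of the 31 genes. Like the rest of the 31, these were not called by edgeR with all libraries. Among them was Sesn1, which edgeR called lower without M3-CKO replicate 3 (adjusted p = 0.011). With 1 library left out the ranges were -0.22 to 0.0082 for Ccng1, -0.62 to 0.46 for Plk2, -0.84 to 0.042 for Sesn1, -0.15 to 0.15 for Aen and -0.22 to 0.26 for Bcl2. They were -0.053 to 0.11 for Mcl1, -0.30 to 0.00037 for Bak1, -0.58 to 0.49 for Pmaip1, -0.45 to 0.33 for Bad, -0.32 to 0.11 for Bmf, -0.074 to 0.30 for Apaf1 and -0.12 to 0.21 for Casp8. Without replicate 3 of both groups the value was 0.040 for Ccng1, 0.12 for Aen, 0.31 for Bcl2, 0.036 for Pmaip1, 0.024 for Bcl2l11, -0.50 for Bad and 0.26 for Bmf. For Bad it was -0.022 with limma-voom and -0.030 with the replicate block. The other 18 genes, Mdm2, Gadd45b, Cdkn1a and Bcl2l1 among them, kept their sign in every setting listed in the methods.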
